A study of Sus scrofa with 8 samples.

Results

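The genes described here are 10 members of the NF-kB system, measured in cultured clones of a pig lymphoma and in normal pig lymphocytes. They comprise the subunit genes NFKB1, NFKB2, REL, RELA and RELB, the inhibitor genes NFKBIA, NFKBIE and NFKBIZ, the brake TNFAIP3 and the receptor CD40. They were taken by symbol from the deposited expression table, and 10 of 10 were among its 22366 features. RNA sequencing covered 8 libraries from Sus scrofa: 4 lymphoma clones from a lymph node tumour, 2 lymphoma clones from a spleen tumour, and 1 library each of CD21+ splenocytes, the normal B cell control, and CD3+ splenocytes, the normal T cell control. The clones came from tumour cells that had grown in culture and had then passed 4 rounds of limiting dilution. The controls were enriched from splenocytes with magnets, and no culture step is described for them, so culture and lymphoma cannot be told apart in any difference from a control. The labels give no strain, age or number of animals, and a p-value here therefore reflects how much the clones vary, which may be technical.

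NF-kB transcription factors are pairs drawn from 5 related proteins, and in resting cells inhibitor proteins hold them in the cytoplasm. In the canonical pathway, signals from antigen receptors, Toll-like receptors or TNF receptors cause the inhibitor IkB-alpha, the product of NFKBIA, to be degraded, which frees pairs built from RELA, REL and the NFKB1 product p50. In the non-canonical pathway, receptors such as CD40 and the BAFF receptor stabilise the kinase NIK, which leads to processing of the NFKB2 product and frees its pairs with RELB. Several of the genes studied here, among them NFKBIA, NFKBIE, TNFAIP3, NFKB2, RELB and REL, are known in human and mouse cells as targets of NF-kB itself, so the system carries its own feedback.

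The libraries held 16415644 to 27253505 counts. Levels are CPM, a gene's counts per 1000000 counts of its library, after scaling by TMM factors, a correction for differences in library composition. RNA was taken from equal cell numbers per sample. The B cell markers that were listed, 7 of 8, summed to 3360 to 4460 CPM in the clones, 6070 in CD21+ splenocytes and 322 in CD3+ splenocytes. All 9 T cell markers were listed and summed to 55.2 to 78.5 CPM in the clones, mostly from CD5 and LCK, with CD3E at 0.391 CPM on average, to 153 in CD21+ splenocytes and to 7700 in CD3+ splenocytes. NK and cytotoxic markers (7 of 8 listed, PRF1 at 0 over the clones) summed to 17.8 to 27.1, 90.4 and 1560 CPM in the same order. Myeloid markers (10 of 10, CD163 at 0 over the clones) summed to 79 to 113, 239 and 626 CPM, and in CD3+ splenocytes ITGAM alone gave 594. Stroma and endothelium markers (8 of 8, COL3A1 and CDH5 at 0 over the clones) summed to 10.8 to 25.6, 243 and 117 CPM. Most of the CD21+ sum came from PECAM1 (184 CPM) and FN1 (54.9 CPM), with CDH5 at 0.0457 and VWF at 0.137 CPM. PDGFRB was higher in the clones, at 6.6 against 0.0915 CPM, and the other 7 were lower. Erythroid and platelet markers (4 of 6, HBB and ALAS2 at 0 over the clones) summed to 116 to 125, 100 and 148 CPM. In the clones nearly all of this was ITGA2B, at 122 CPM against 80.5 in CD21+ splenocytes, and the other 3 were lower in the clones. Mitochondrially encoded genes took 6.16 to 7.66% of counts in the clones, 10.9% in CD21+ splenocytes and 21.6% in CD3+ splenocytes.

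The comparison with CD21+ splenocytes asks how the lymphoma clones differ from normal B cells, and all 10 NF-kB genes fell in the clones. In that comparison 32.4% of the 13498 genes tested were called lower and 34.8% higher, 67.2% in all (edgeR quasi-likelihood F-test, adjusted p under 0.05). The median log2 fold change of the 10 genes was -1.69, against 0.05 over all genes tested. All 6 clones lay below CD21+ splenocytes for each of the 10 genes, a pattern that 39.8% of tested genes shared, while 43.2% were higher in all 6 clones. The sizes differed widely among the genes. NFKBIZ was 28.8-fold lower, NFKB2, RELB, NFKBIA, NFKBIE and TNFAIP3 were 2.95-fold to 4.41-fold lower, and NFKB1, REL, RELA and CD40 were 1.26-fold to 1.64-fold lower. The CD21+ library was a mixture of enriched cells, in which a smaller share of cells and less RNA per cell cannot be told apart.

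**Figure D1:**
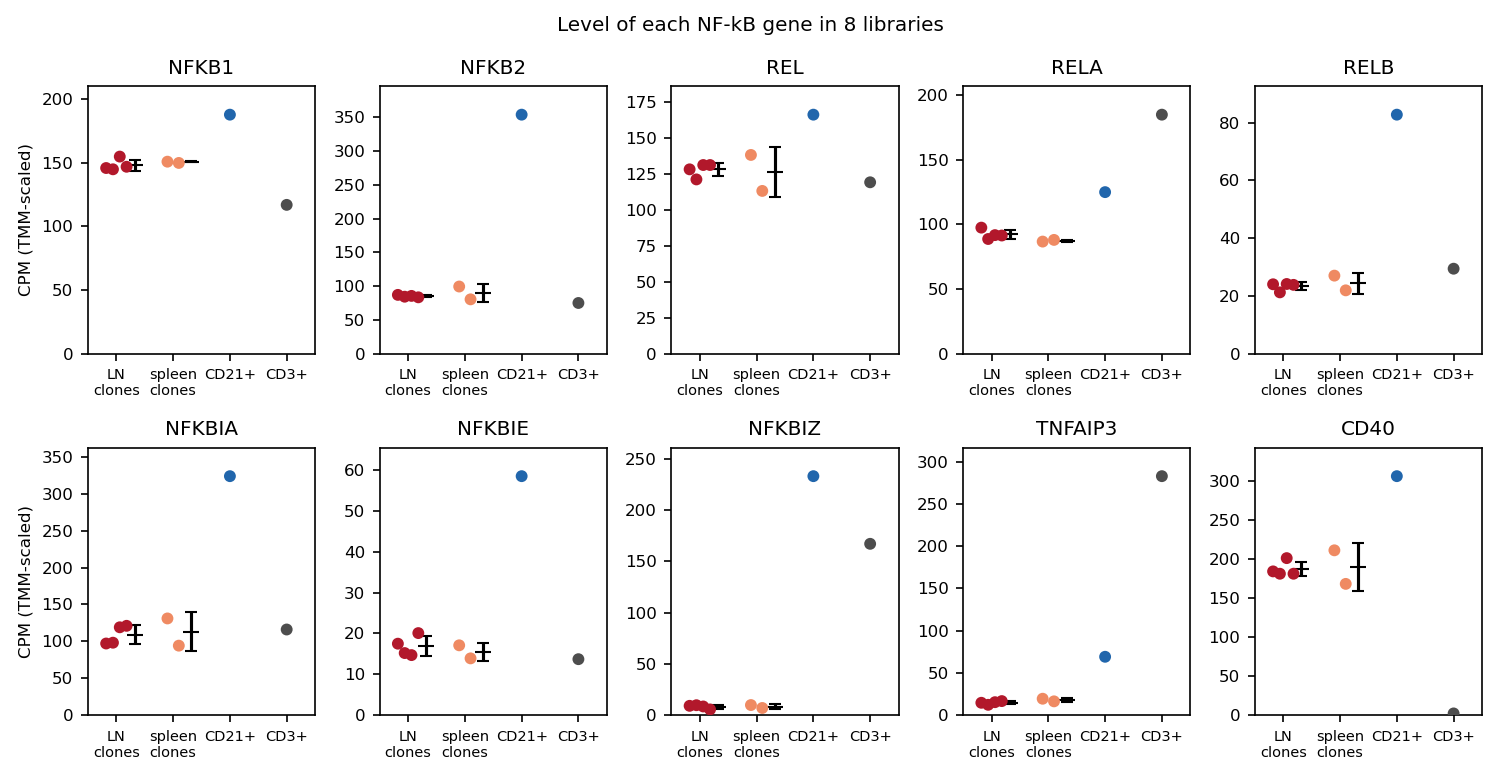
Level of each gene in CPM (TMM-scaled, linear axes from 0) in the 4 lymph node (LN) clones, the 2 spleen clones, CD21+ splenocytes and CD3+ splenocytes. Points are libraries, and bars beside the clones are the mean ± SD of that group. The clones sit below CD21+ splenocytes in all 10 panels, and CD40 is at 2.04 CPM in CD3+ splenocytes.

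Among the subunits, NFKB2 and RELB, the partners of the non-canonical pathway, fell by more than the others. NFKB2, whose p100 product both holds back and gives rise to a subunit, had 80.3 CPM in the lowest clone, 84.8 in the median and 99.3 in the highest, against 354 CPM in CD21+ splenocytes. RELB, which encodes a subunit found mainly in pairs with NFKB2 products, ranged from 21.2 CPM through a median of 23.9 to 27 in the clones, against 82.8 CPM in CD21+ splenocytes. No clone came near the CD21+ level of either gene. The log2 fold change was -2.03 ± 0.10 for NFKB2 (SE, edgeR adjusted p = 9.2e-07) and -1.81 ± 0.11 for RELB (adjusted p = 3.45e-06).

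The subunit genes of the canonical pathway fell by much less. NFKB1, the source of p50, ranged from 145 CPM through a median of 149 to 155 in the clones, against 188 CPM in CD21+ splenocytes, with a log2 fold change of -0.34 ± 0.07 (SE, edgeR adjusted p = 0.00272). REL, a subunit prominent in lymphocytes, ranged from 113 CPM through 130 to 138 in the clones, against 166 CPM (log2 -0.39 ± 0.10, adjusted p = 0.00966). RELA, which encodes the broadly expressed p65 subunit, ranged from 86.7 CPM through 90 to 97.5 in the clones, against 125 CPM (log2 -0.47 ± 0.08, adjusted p = 0.00104). These 3 calls rest on the scaling. Under total-count scaling the median of all genes tested moved to 0.35 and the log2 fold changes of NFKB1, REL and RELA were -0.04, -0.09 and -0.17 (adjusted p = 0.658, 0.458 and 0.113). Measured from the median of all genes, the 3 values were -0.39, -0.44 and -0.52 under both scalings. Rescaling shifts all genes of a comparison almost alike, so this sameness was fixed in advance. It does not show that the 3 decreases hold under either scaling. The other 7 genes were called lower under total-count scaling too, where 66.7% of calls were higher, against 51.8% with TMM.

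The feedback inhibitors were all lower in the clones. NFKBIA, which encodes the main cytoplasmic inhibitor, ranged from 94.1 CPM through a median of 108 to 131 in the clones, against 324 CPM in CD21+ splenocytes. NFKBIE, a related inhibitor, ranged from 13.9 CPM through 16.1 to 20.1, against 58.6 CPM. TNFAIP3, which encodes A20, an enzyme that edits ubiquitin chains and shuts off signalling to NF-kB, ranged from 12.1 CPM through 15.7 to 19.3, against 69 CPM. For each of these genes even the highest clone lay well under the CD21+ value. The log2 fold change was -1.56 ± 0.16 for NFKBIA (SE, edgeR adjusted p = 6.41e-05), -1.84 ± 0.16 for NFKBIE (adjusted p = 2.27e-05) and -2.14 ± 0.17 for TNFAIP3 (adjusted p = 1.44e-05).

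NFKBIZ, an inducible nuclear protein of the inhibitor family that can also act as a coactivator, showed the largest difference of the 10. It ranged from 5.46 CPM in the lowest clone through 8.65 to 9.73 in the highest, against 233 CPM in CD21+ splenocytes and 167 CPM in CD3+ splenocytes. The log2 fold change against CD21+ splenocytes was -4.85 ± 0.20 (SE, edgeR adjusted p = 4.65e-07), and 2.99% of tested genes had a lower one. Over the 6 clones NFKBIZ had 1177 counts in all, against 5102 in the single CD21+ library.

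CD40, the receptor through which T cells help B cells, ranged from 168 CPM through a median of 183 to 211 in the clones, against 306 CPM in CD21+ splenocytes. The decrease was small beside that of the inhibitors, with a log2 fold change of -0.71 ± 0.11 (SE, edgeR adjusted p = 0.000687). CD40LG, which encodes its ligand, had 2 counts over the 6 clones, 2 in CD21+ splenocytes and 867 in CD3+ splenocytes, and was not tested against CD21+ splenocytes.

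In the authors' deposited table, which holds their own comparison of the clones with CD21+ splenocytes, all 10 genes also carry negative fold changes, and a minus sign there marks a lower level in the clones. The authors' deposited table gives NFKBIZ at -28.5, TNFAIP3 at -4.37 and NFKB2 at -4.06. For NFKB1 and REL the authors' deposited table gives -1.25 and -1.3, with false discovery rates of 0.0431 and 0.0296.

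Markers of other cells and signs of recent stimulation moved with this comparison. The 14 immediate early genes, which are induced within minutes of a stimulus or of handling cells, summed to 438 to 638 CPM in the clones, 5520 in CD21+ splenocytes and 3700 in CD3+ splenocytes. In the clones 13 of 14 fell against CD21+ splenocytes, beside 32.4% of all genes, with a median log2 fold change of -2.84. The T cell, NK, myeloid, and stroma and endothelium markers also had lower sums in the clones than in CD21+ splenocytes, as given above. Single markers went the other way. CD5 averaged 41.9 CPM in the clones against 10.4, and NKG7 21.4 CPM against 7.09, and CSF1R, FCGR1A and PDGFRB were higher in the clones too. The part of these differences in the NF-kB results was not tested.

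**Figure D2:**
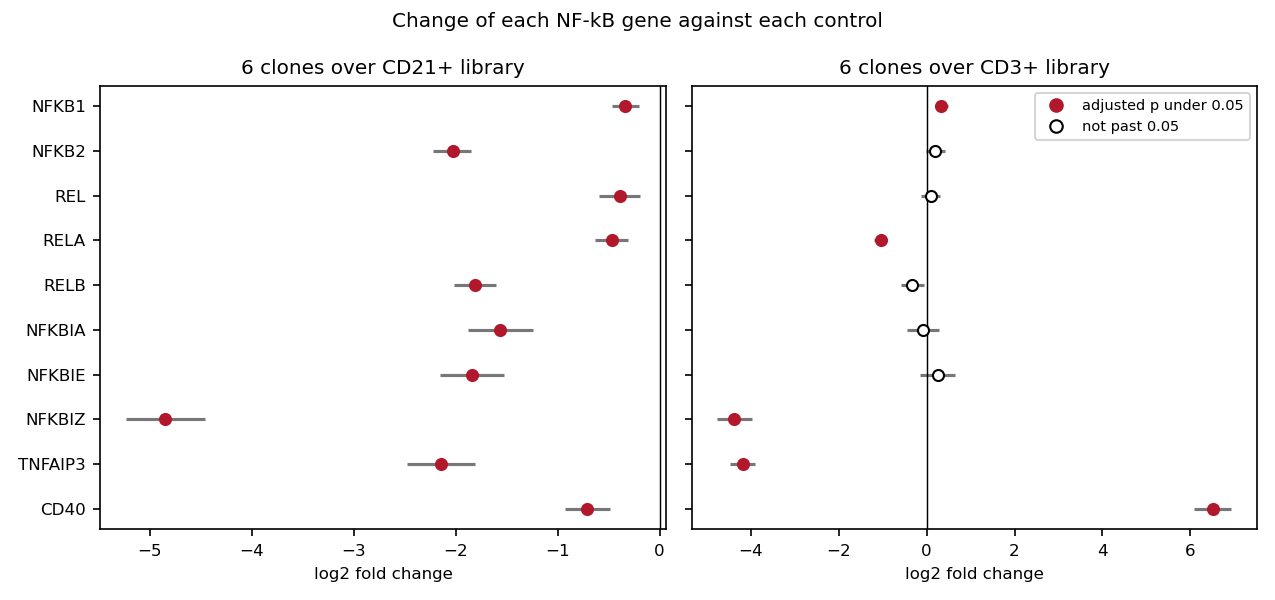
Log2 fold change of the 6 clones over CD21+ splenocytes (left) and over CD3+ splenocytes (right) for each gene. Points are edgeR estimates and filled points have an adjusted p under 0.05. Lines are approximate 95% intervals from the SE and a normal distribution, narrower than the F-test would give. All 10 genes lie left of 0 on the left, and 5 of 10 are filled on the right.

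Ratios of counts between 2 of the genes within a library do not depend on how libraries are scaled, and these pairs were chosen after the values were seen. Gene length does not cancel within a ratio, so only its change between libraries can be read. NFKB2 counts came to 0.581 ± 0.0435 of NFKB1 counts in the clones (SD, n = 6), against 1.88 in CD21+ splenocytes and 0.637 in CD3+ splenocytes. The CD3+ value lay inside the range of the clones, 0.534 to 0.659, and the CD21+ value did not. RELB came to 0.186 ± 0.00766 of REL in the clones, against 0.498 in CD21+ splenocytes and 0.247 in CD3+ splenocytes, outside the range of the clones in both. NFKB2 over RELB, the pair within the non-canonical pathway, was 3.66 ± 0.167 in the clones, 4.27 in CD21+ splenocytes and 2.55 in CD3+ splenocytes, and both controls lay outside the range of the clones, 3.5 to 3.97. Against the mean of the clones, this ratio was 1.17 times as high in CD21+ splenocytes, where NFKB2 over NFKB1 was 3.24 times as high.

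Between inhibitors and subunits the ratios also differed. NFKBIA over RELA was 1.22 ± 0.195 in the clones (SD, n = 6), against 2.59 in CD21+ splenocytes and 0.626 in CD3+ splenocytes. NFKBIE over RELA was 0.181 ± 0.0237 in the clones, 0.469 in CD21+ splenocytes and 0.0744 in CD3+ splenocytes. For both inhibitors the clones thus lay between the controls, with no overlap. REL over RELA ranged from 1.29 to 1.59 in the clones, which held the CD21+ value of 1.33, while CD3+ splenocytes were at 0.644. A single control library against 6 clones cannot give an exact permutation p (two-sided) below 0.143, and that was the value for each of these ratios against CD21+ splenocytes except REL over RELA, at 0.571.

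**Figure D3:**
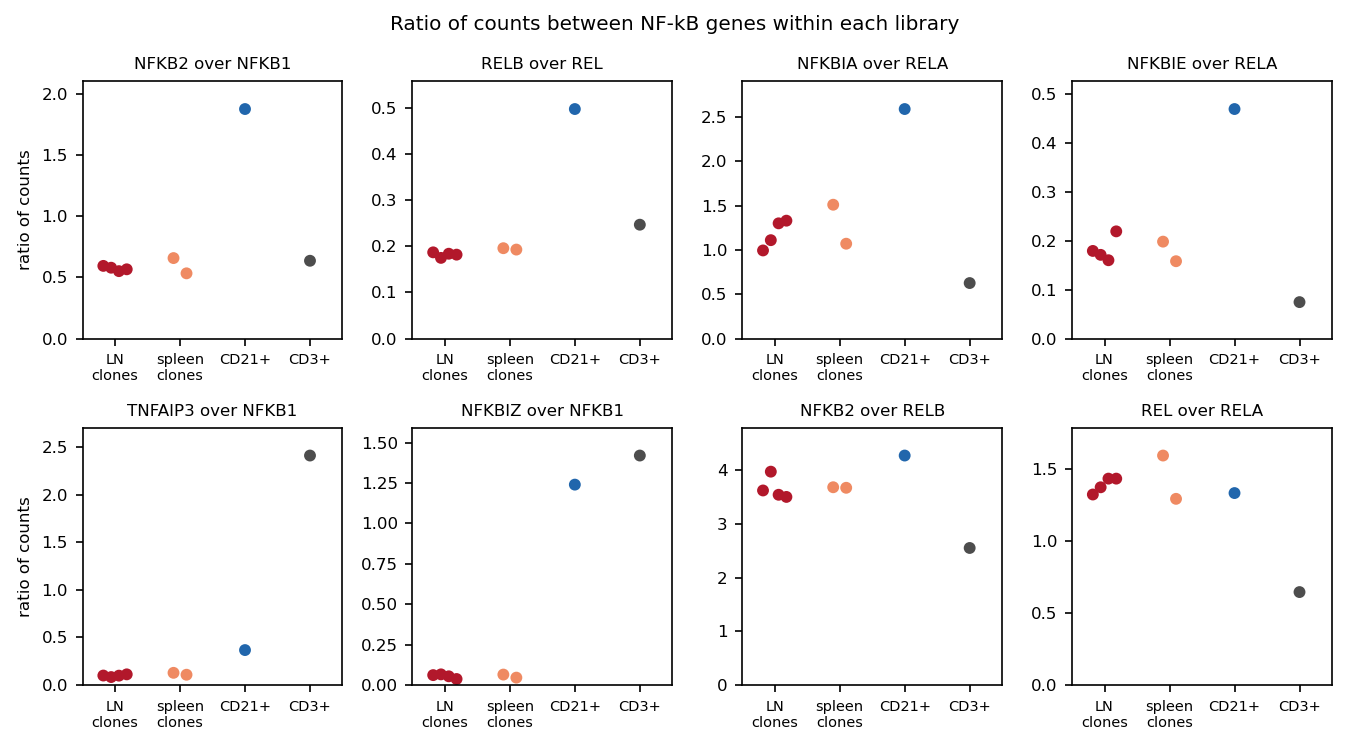
Ratio of counts between 2 NF-kB genes within each library, on linear axes from 0, for the 4 lymph node (LN) clones, the 2 spleen clones and the 2 control libraries. Each point is 1 library. NFKB2 over NFKB1 is between 0.534 and 0.659 in the clones and 1.88 in CD21+ splenocytes, and REL over RELA in the clones overlaps the CD21+ value.

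Against CD3+ splenocytes, the normal T cell control, the 10 genes split: CD40 and NFKB1 rose, RELA, TNFAIP3 and NFKBIZ fell, and NFKB2, REL, RELB, NFKBIA and NFKBIE did not pass. In that comparison 36.8% of the 13560 genes tested were called higher and 35.1% lower, so 5 of 10 called is below the background of 72%. Under total-count scaling the median of all genes moved from 0.05 to 0.51 and the share of higher calls from 51.2% to 68.8%. There NFKB2, REL and NFKBIE were called higher as well, at log2 0.66, 0.54 and 0.7 (edgeR adjusted p = 0.00146, 0.00215 and 0.0114). So 8 of 10 were called, near the share of all genes, 9968 of 13560, called under that scaling. Measured from the median of all genes NFKB2, REL and NFKBIE stood at 0.15, 0.03 and 0.19, distances that a change of scaling leaves almost unchanged by construction. This comparison uses the same 6 clones as that with CD21+ splenocytes. The immediate early sum and the mitochondrial share given above were also higher in CD3+ splenocytes than in any clone, and their part here was not tested.

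CD40 had 168 to 211 CPM in the clones, against 2.04 CPM, or 34 counts, in CD3+ splenocytes. Its log2 fold change was 6.51 ± 0.21 (SE, edgeR adjusted p = 1.03e-07). The same clones therefore lay between the controls for this receptor, closer to the B cell one.

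TNFAIP3 and NFKBIZ fell against both controls. TNFAIP3 had 12.1 to 19.3 CPM in the clones, against 283 CPM in CD3+ splenocytes, a log2 fold change of -4.18 ± 0.15 (SE, edgeR adjusted p = 1.51e-07). NFKBIZ had a log2 fold change of -4.37 ± 0.20 (adjusted p = 6.16e-07). RELA fell by 1.04 ± 0.08 (adjusted p = 7.55e-06), with 86.7 to 97.5 CPM in the clones against 185 CPM. Whether or not they passed, 4 of the 10 genes (these 3 and RELB) were under CD3+ splenocytes in all 6 clones, as were 41.6% of tested genes, and 4 (NFKB1, NFKB2, NFKBIE and CD40) were above them in all 6, as were 44.4%. Both counts are near those shares.

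NFKB1 and the genes that did not pass lay closer to the CD3+ level. NFKB1 rose by 0.33 ± 0.07 on the log2 scale (SE, edgeR adjusted p = 0.00358), with 145 to 155 CPM in the clones against 117 CPM. The interval of the difference was -0.02 to 0.43 for NFKB2, -0.12 to 0.3 for REL, -0.44 to 0.28 for NFKBIA and -0.15 to 0.64 for NFKBIE (log2, approximate 95%). These intervals are narrower than the F-test would give. RELB, at 21.2 to 27 CPM in the clones against 29.4 CPM, had a log2 fold change of -0.32 ± 0.13 (adjusted p = 0.0563) and passed without spleen clone 1, at -0.36 (adjusted p = 0.0247), but under total-count scaling its sign turned, at 0.14 (adjusted p = 0.377). For NFKBIA, 3 clones lay above CD3+ splenocytes and 3 below, and for REL 5 above and 1 below.

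The 2 controls were set against each other by fold alone, with 95% intervals that cover counting error only. A level 2-fold or more above that of CD3+ splenocytes was seen in CD21+ splenocytes for 5 of 10 genes, as for 13.4% of 11963 genes at 1 CPM or more in either control, and TNFAIP3 was 2-fold or more lower, as were 17.2%. CD40 stood at 306 CPM in CD21+ splenocytes and 2.04 in CD3+ splenocytes, a log2 ratio of 7.23 (6.75 to 7.76). NFKB2 had a log2 ratio of 2.24 (2.15 to 2.33), NFKBIE one of 2.09 (1.89 to 2.3), RELB one of 1.5 (1.35 to 1.64) and NFKBIA one of 1.49 (1.41 to 1.56). TNFAIP3 stood at 69 CPM in CD21+ splenocytes and 283 in CD3+ splenocytes, a log2 ratio of -2.04 (-2.12 to -1.95). NFKB1, REL and NFKBIZ were 1.6-fold, 1.4-fold and 1.4-fold higher in CD21+ splenocytes, and RELA was 1.48-fold lower there. NFKB2, RELB, NFKBIA and NFKBIE, which were 2.8-fold to 4.72-fold higher in CD21+ splenocytes, are also genes at which the clones did not differ from CD3+ splenocytes past the threshold.

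Set in order, the levels formed a few patterns. For NFKB1, NFKB2, NFKBIE and CD40 CD21+ splenocytes were highest, then all 6 clones, then CD3+ splenocytes. NFKBIE in the lowest clone, 13.9 CPM, was next to 13.7 CPM in CD3+ splenocytes. RELB and NFKBIZ ran from CD21+ splenocytes through CD3+ splenocytes to the clones. RELA and TNFAIP3 were highest in CD3+ splenocytes, then in CD21+ splenocytes, then in the clones. For REL and NFKBIA CD21+ splenocytes were highest and the CD3+ value lay inside the range of the clones.

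Between clones of the lymph node tumour and of the spleen tumour none of the 10 genes differed past the threshold (edgeR quasi-likelihood F-test, adjusted p of 0.942 or more). Of 12580 genes tested, 0 were called (0%), 605 had an unadjusted p under 0.05, and DESeq2 called 20, none of them among the 10. TNFAIP3 had the largest difference, with 14.5, 12.1, 15.2 and 16.5 CPM in lymph node clones 1 to 4 and 19.3 and 16.2 CPM in the spleen clones. Its log2 fold change was -0.28 ± 0.14 (SE, unadjusted p = 0.0899), and the groups overlapped. RELA alone did not overlap, with 88.7 to 97.5 CPM in the lymph node clones and 86.7 and 88 CPM in the spleen clones, a pattern that 7.33% of tested genes shared, with 8.17% the other way round.

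The spread over the 6 clones was narrowest for NFKB1 and RELA and widest for the inhibitors and TNFAIP3. NFKB1 varied by 2.44% (coefficient of variation, n = 6), against a median of 6.62% over 2361 genes within 2-fold of its level, of which 3.05% varied less. RELA varied by 4.3%, REL by 6.77%, NFKB2 by 7.65% and RELB by 8.62%. NFKBIE varied by 13.8%, NFKBIA by 14.2%, TNFAIP3 by 15.2% and NFKBIZ by 20.6%, each above the median of genes at a similar level, which ran from 6.64% to 13.1% for these 4. CD40 varied by 8.3%. Spleen clone 1 was the highest clone for NFKB2, REL, RELB, NFKBIA, NFKBIZ, TNFAIP3 and CD40. Spleen clone 2, of the same tumour site, was the lowest for NFKB2, REL, NFKBIA, NFKBIE and CD40.

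Of the receptors and ligands that feed NF-kB, 13 of 14 were tested against CD21+ splenocytes, and 5 rose and 5 fell. Those shares are near the 34.8% higher and 32.4% lower over all genes, and the median log2 fold change was -0.15 against 0.05 over all genes. TNFRSF13C, the BAFF receptor and a trigger of the non-canonical pathway, averaged 1.57 ± 1.60 CPM in the clones (SD, n = 6) and 291 CPM in CD21+ splenocytes (log2 -7.66 ± 0.54, SE, edgeR adjusted p = 7.83e-06), and its log2 fold change was -8.28 without lymph node clone 1. LTBR, another receptor of that pathway, had 0 counts over the clones and 24 in CD21+ splenocytes, at least 53.4-fold lower by 3 counts over the group, though its call was lost with DESeq2 (adjusted p = 0.057). TNFRSF1A, a TNF receptor, had 3 counts over the clones and 35 in CD21+ splenocytes, 77.8 times as much there by scaled counts (24.5 to 396, 95% by counting). TLR4, the receptor for bacterial lipopolysaccharide, rose to 31.9 ± 7.92 CPM in the clones, against 5.95 CPM in CD21+ splenocytes, and TNFSF13B, which encodes BAFF, to 15.9 ± 1.74 CPM against 5.49. IL1R1, the receptor for interleukin-1, averaged 7.31 ± 2.70 CPM in the clones, against 0 counts in CD21+ splenocytes, which puts the clones at least 52.3-fold higher by 3 counts, though it did not pass with limma-voom (adjusted p = 0.109). TNF and LTB, ligands of the pathway, did not pass. TNF averaged 92.4 ± 17.0 CPM in the clones against 88.6, and LTB averaged 572 ± 90.1 CPM against 632.

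Adaptors and kinases were lower more often than higher. Of 21 tested, 14 fell and 2 rose against CD21+ splenocytes, with a median of -0.42, where 32.4% of all genes fell and 34.8% rose. Under total-count scaling 9 fell and 4 rose, where 3093 of all 13498 genes fell and 6190 rose. TRAF5, a TNF receptor adaptor, averaged 7.60 ± 1.20 CPM in the clones and 55.5 in CD21+ splenocytes (log2 -2.87 ± 0.17, SE, edgeR adjusted p = 3.36e-06). MAP3K14, which encodes NIK, the kinase of the non-canonical pathway, had a log2 fold change of -1.53 ± 0.15 (adjusted p = 4.28e-05). TRAF6, the adaptor of Toll-like and interleukin-1 receptors, rose by 1.16 ± 0.21 (adjusted p = 0.00164). CHUK, which encodes IKK-alpha, rose by 0.28 ± 0.09 (adjusted p = 0.0271) but did not pass in the lymph node clones alone (adjusted p = 0.0753) or in the spleen clones alone (0.0544).

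Other inhibitors and brakes fell in 8 of 13 and rose in 2, with a median of -0.49, beside the same 32.4% and 34.8% of all genes. Under total-count scaling they fell in 5 and rose in 4, beside the 3093 and 6190 of 13498 genes given above. ZC3H12A, a ribonuclease that destroys inflammatory transcripts, averaged 5.93 ± 0.26 CPM in the clones and 41 in CD21+ splenocytes (log2 -2.80 ± 0.11, SE, edgeR adjusted p = 4.24e-07). CYLD, a deubiquitinase that restrains the pathway, had a log2 fold change of -1.59 ± 0.11 (adjusted p = 5.37e-06) and BCL3, a nuclear member of the inhibitor family, one of -1.66 ± 0.44 (adjusted p = 0.00988). OTULIN, which removes linear ubiquitin chains, rose by 0.76 ± 0.22 (adjusted p = 0.0145). TNIP3, a partner of A20, had 500 counts over the clones and 2 in CD21+ splenocytes, 37.5 times as much in the clones by scaled counts (10.3 to 310, 95% by counting), and it did not pass with limma-voom (adjusted p = 0.129).

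Genes known as NF-kB targets in human and mouse cells fell in 17 of 21 and rose in 3 against CD21+ splenocytes, with a median log2 fold change of -2.81, where 32.4% of all genes fell and 34.8% rose. VCAM1, an adhesion molecule, had 7 counts over the clones and 958 in CD21+ splenocytes (log2 -9.69 ± 0.50, SE, edgeR adjusted p = 1.53e-06). CXCL8, a neutrophil chemokine, had 0 counts over the clones and 214 in CD21+ splenocytes, at least 476-fold lower by 3 counts over the group. IL6, an inflammatory cytokine, had 3 counts over the clones and 69 in CD21+ splenocytes, 153 times as much there by scaled counts (50.4 to 762, 95% by counting). The fitted log2 fold change of IL6 was -6.95, and -7.82 without spleen clone 1. VCAM1 is also a product of stroma and endothelium and CXCL8 of myeloid cells. The marker sums of such cells were lower in the clones too, though PDGFRB, CSF1R and FCGR1A were higher there. The part of such cells was not tested. Among targets that B cells express, BIRC3, an inhibitor of apoptosis and of NIK, averaged 204 ± 21.8 CPM in the clones and 852 in CD21+ splenocytes. SOD2, a mitochondrial antioxidant enzyme, rose by 0.86 ± 0.12 (adjusted p = 0.000313), BCL2L1, a survival gene, by 1.43 ± 0.20 (adjusted p = 0.000294), and PTGS2, a prostaglandin synthase, by 2.74 ± 0.89 (adjusted p = 0.0245, but 0.0991 with limma-voom). BIRC3, TNF and LTB were chosen for naming after their values were seen.

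Against CD3+ splenocytes the same lists gave 7 higher and 4 lower of 13 receptors and ligands, 1 and 13 of 21 adaptors and kinases, 1 and 8 of 13 other inhibitors, 2 and 13 of 19 targets, and 0 and 12 of 14 immediate early genes. Over all 13560 genes 36.8% were higher and 35.1% lower, so the share of receptors and ligands that fell is near that of all genes. Under total-count scaling 7 of 21 adaptors and kinases were called higher, a smaller share than the 6854 of all 13560 genes called higher there. LTA, a ligand of TNF receptors, averaged 48.1 ± 6.43 CPM in the clones and 4.56 in CD3+ splenocytes (log2 3.39 ± 0.26, SE, edgeR adjusted p = 8.28e-06). CD83, an activation marker of B cells, averaged 62.7 ± 16.2 CPM in the clones and 1.92 in CD3+ splenocytes. TRAF5 and MAP3K14 had log2 fold changes of -2.82 ± 0.18 and -1.57 ± 0.15 (edgeR adjusted p = 2.88e-06 and 3.13e-05), sizes near those against CD21+ splenocytes. CCL5, a chemokine of T cells, averaged 0.479 ± 0.162 CPM in the clones and 699 in CD3+ splenocytes. Of the list genes named as higher than in CD21+ splenocytes, TLR4, TNFSF13B, OTULIN and SOD2 were also called higher here. IL1R1, TRAF6, CHUK, TNIP3, BCL2L1 and PTGS2 were not (edgeR adjusted p from 0.111 to 0.853). IL1R1 stood at 6.6 CPM in CD3+ splenocytes. Between the lymph node and spleen clones 0 genes of these lists were called in the main fit. With clone number as a replicate block 1 receptor or ligand, 1 adaptor or kinase and 1 immediate early gene were called higher. In that fit 1 target was called lower, and 570 of all 12580 genes were called.

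**Figure D4:**
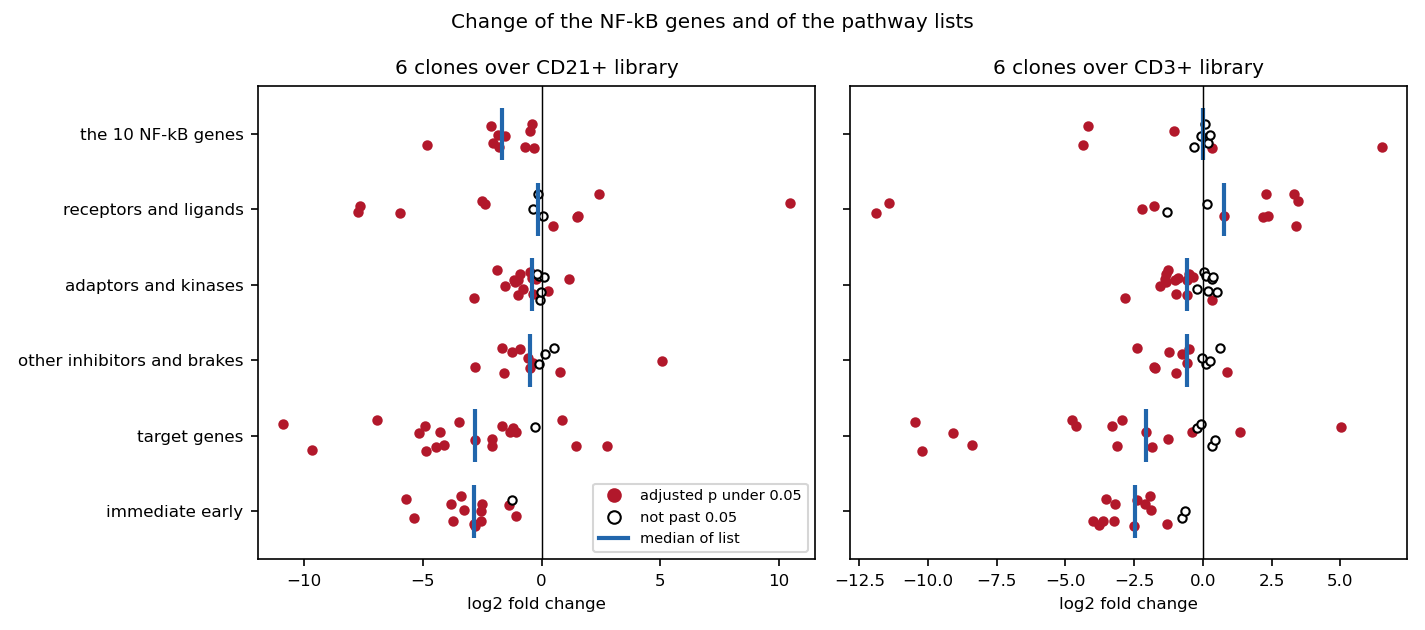
Log2 fold change of each tested gene of the 10 NF-kB genes and of the 5 pathway lists, for the 6 clones over CD21+ splenocytes (left) and over CD3+ splenocytes (right). Filled points have an edgeR adjusted p under 0.05 and blue bars are list medians, which are -2.81 for the targets and -1.69 for the 10 genes on the left. Values of genes with 0 counts on one side, such as CXCL8 and IL1R1, depend on the prior count of the fit.

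Across the 8 libraries, the genes with the profile nearest to each NF-kB gene were found by the root mean square difference of centred log2(CPM + 1), among 11988 genes with a mean of 1 CPM or more. DOCK9, an exchange factor for small GTPases, lay 0.0462 from NFKB2, and ENSSSCG00000031896, which has no symbol, lay 0.11 from it. DOCK9 stood at 158 ± 10.3 CPM in the clones (SD, n = 6), 647 in CD21+ splenocytes and 134 in CD3+ splenocytes. ENSSSCG00000031896 stood at only 0.557 ± 0.136, 4.99 and 0.3 CPM, levels at which the 1 CPM added before the log shrinks differences. For NFKBIZ the nearest were NLRC5, an activator of MHC class I genes, at 0.214 and GADD45B, a stress-induced gene of the target list, at 0.225. NLRC5 had 20.7 ± 1.51 CPM in the clones, 470 in CD21+ splenocytes and 374 in CD3+ splenocytes, and GADD45B 3.32 ± 0.645, 97.3 and 82.4 CPM. Both were low in all clones and high in both controls. For CD40 they were BTK, a kinase of the B cell receptor, at 0.0928 and CD22, a B cell surface lectin, at 0.149. BTK had 268 ± 17.0 CPM in the clones, 436 in CD21+ splenocytes and 3.6 in CD3+ splenocytes.

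For the other 7 genes the distances were as follows. NFKB1 was nearest to UTP18 and IBTK, at 0.0267 and 0.0288, REL to ACBD4 and ZNF596, at 0.0494 and 0.0573, and RELA to DCAF15 and MEAF6, at 0.0286 and 0.0491. RELB was nearest to SNX13 and ANXA9, at 0.0914 and 0.1, and NFKBIA to SOWAHD and TSPAN3, at 0.102 and 0.116. NFKBIE was nearest to PPP3CA, a catalytic subunit of calcineurin, at 0.147 and to ZC2HC1A at 0.161. TNFAIP3 was nearest to GPR137B at 0.145 and to PTGER2, a prostaglandin E2 receptor, at 0.16. PTGER2 stood at 5.72 ± 0.362 CPM in the clones, 31.5 in CD21+ splenocytes and 122 in CD3+ splenocytes. GPR137B stood at 0.0388 ± 0.051, 3.2 and 16.9 CPM in the same order. At such low levels the 1 CPM added before the log shrinks differences, so its small distance does not mean a like fold change. Among the 10 themselves the closest pair was NFKB1 and REL, at 0.112, followed by RELB and NFKBIA, at 0.137, and NFKB2 and NFKBIE, at 0.164. Each distance is over 8 libraries, 6 of them clones.

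In the RefSeq annotation of Sscrofa11.1, the genome the study aligned to, the 10 genes lie on 9 chromosomes. NFKBIZ lies on chromosome 13 at 157261419 to 157273119, NFKB2 on chromosome 14 at 113406412 to 113414177, TNFAIP3 on chromosome 1 at 26474158 to 26489771 and CD40 on chromosome 17 at 48286116 to 48298188. NFKBIA and NFKBIE share chromosome 7, at 64508119 to 64510754 and 39255078 to 39266085. NFKB1 lies on chromosome 8 at 118391010 to 118478927, REL on chromosome 3 at 80861862 to 80912233, RELA on chromosome 2 at 6594869 to 6602684 and RELB on chromosome 6 at 51444670 to 51480350. REL shares 1912 bases with PUS10, which stood at 37.9 CPM in the clones, 74.9 in CD21+ splenocytes and 48.3 in CD3+ splenocytes, and NFKBIE shares 579 bases with TMEM151B, at 4.98, 4.16 and 8.65 CPM. NFKB2, RELB, NFKBIA and CD40 each overlap an annotated long noncoding RNA. Whether the libraries kept strand is not stated, and reads in such overlaps may have been split either way.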

How the data were processed

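Per the submitters' processing notes, Trimmomatic, Bowtie2 and edgeR were used (no versions), and the series description names Sscrofa11.1. Sources used here do not state counter, annotation or strandedness. The authors deposited whole-number read counts per gene for 8 libraries, with RPM values that match count over column sum to within 7.3e-12. A further 8 per-library columns were not used. The 2 closing lines without a feature ID were left out. The authors' deposited p-value (false discovery rate) and signed fold change, held as a score, were copied unaltered. The test was edgeR's (4.0.16) two-sided quasi-likelihood F-test after TMM scaling and filterByExpr, with Benjamini-Hochberg adjustment over all genes tested and a threshold of 0.05. It was also run on simulated data in which few genes changed and the control varied like the clones. That run cannot show how the test behaves against the real controls, where most genes were called. A lone control was assumed to vary like the clones. SE was derived from the log2 fold change and F (its size divided by F's square root), so it adds nothing to the p-value. Floors are 3 counts (0.104 to 0.18 CPM per library). Intervals and floors cover counting error only. Alternatives used RLE, total counts, no filter, DESeq2 1.42.0, limma 3.58.1 (voom), all libraries in 1 fit, each tumour site alone, each clone left out, and a replicate block. The name table gave symbols to 877 features. The members and lists were chosen with earlier results of these data known. Genes named from the lists are the 3 highest and 3 lowest log2 fold changes past the threshold per list and comparison, of which the text describes a part, and 1 is not reported here; the 2 nearest profiles were named per member.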

Additional observations from a re-analysis of the deposited data

Results flagged for a closer look

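In the 6 clones NFKB2 was highest in spleen clone 1, at 99.3 CPM, a gap to the next clone of 0.65 of the whole range, above Dixon's 95% critical value. The RELB over RELA count ratio was also highest in spleen clone 1, at 0.311, with a gap of 0.673. In the 4 lymph node clones RELB was lowest in clone 2, at 21.2 CPM, with a gap of 0.909, both also above that value for their group size. With 20 groups of levels and 18 of ratios examined, chance flags about 1 group in 20.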

How the results depend on the processing

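Against the CD21+ library 137 of 140 member values under alternatives kept their direction and side of the threshold, and the other 3 were those of NFKB1, REL and RELA under total-count scaling. With each clone left out, 10 of 10 members were called each time, among 8589 to 9568 genes called. Against the CD3+ library 131 of 140 values kept both. A further 7 passed that had not, 3 of them under total-count scaling and 4 of RELB. The other 2, RELB at 0.14 and NFKBIA at 0.38 under total-count scaling, changed sign without passing. Under that scaling 8 of 10 members were called in all, beside 9968 of 13560 genes. Leaving out a clone gave 5 to 6 members called there and 9273 to 10222 genes. Between the tumour sites 0 members were called under any alternative, but 12 of 130 uncalled log2 differences changed sign, 3 of them to a value that rounds to 0. With a clone left out the range was -0.21 to 0.09 for NFKB2, -0.20 to 0.10 for RELB, -0.26 to 0.21 for NFKBIA, -0.26 to 0.24 for NFKBIZ, -0.17 to 0.16 for CD40, -0.10 to 0.18 for REL and -0.01 to 0.28 for NFKBIE, and with the replicate block NFKBIZ was at 0.18. Genes called went from 0 to 20 with DESeq2, 570 with clone number as a replicate block, and 0 to 1 with a clone left out (1 without lymph node clone 4). Same-numbered clones of the 2 sites deviated together across genes at r = 0.234 and -0.0502, and genes are not independent replicates. With 2 spleen clones centred on their mean, each r recurs with the opposite sign for the other spleen clone. These values therefore cannot decide whether the clones are paired. Of the list genes, IL1R1, TNIP3 and PTGS2 did not pass with limma-voom (adjusted p = 0.109, 0.129 and 0.0991) and LTBR did not with DESeq2 (0.057). The cause of these changes was not tested, beyond the scaling named. Between the controls 6 members were 2-fold or more apart under all 3 scalings. Leaving out a clone, an alternative chosen after seeing the data for the count ratios, moved 0 of 54 beyond 1 SD. Leaving out 1 of 6 values cannot move their mean that far, so this count says nothing about how stable the ratios are. The lone control libraries limit every comparison with them.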
